A study of Mus musculus with 12 samples.

Results

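Cholesterol and fatty acid synthesis in ear skin was followed through 33 genes, chosen by symbol from a list of pathway enzymes, sterol sensors and transcription factors. Each of the 33 symbols was among the 23234 in the tables, and each was among the 14059 genes that reached 1 FPKM (a level per transcript length, corrected for library size) in at least 3 of 12 libraries. RNA was sequenced from ears of mice aged 8 to 12 weeks, in 4 groups of 3 libraries. The wild type C57BL/6J groups were untreated (WT_untreated), given phosphate-buffered saline (WT_PBS), or given 100 mg of Oxarol, an ointment with 2.5 µg of the vitamin D3 analogue maxacalcitol (WT_Oxarol). The fourth group, VDRcKO_Oxarol, carried K5-Cre;VDR f/f and received the same ointment, and the treated ears were taken 1 day later. K5-Cre acts in basal keratinocytes and their descendants, so other skin cells keep an intact Vdr. No saline-treated or untreated group of that genotype was analysed here, so an effect of the genotype and a lost response to the ointment cannot be told apart. Whether each library is its own animal is not labelled, and the tests measure only the spread between these libraries, which may be technical.

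Cells build cholesterol from acetyl-CoA through mevalonate and squalene, and build fatty acids from the same acetyl-CoA through malonyl-CoA. Both routes are switched on by the SREBP transcription factors, encoded by Srebf1 and Srebf2. The escort protein SCAP carries SREBP to the Golgi for cleavage when sterols are low, and the INSIG proteins hold it in the endoplasmic reticulum when sterols are plentiful. Keratinocytes use both products for the lipid barrier of the stratum corneum, and sebaceous glands and skin fat make lipids in bulk, so whole ear skin mixes several sources of these transcripts.

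SREBP binds sterol regulatory elements in the promoters of its targets, usually beside the CCAAT box of the factor NF-Y. Promoters of the listed genes, which were chosen by symbol and not by sequence, were searched for these and other motifs. In RefSeq windows from 250 bases before to 50 bases after a start site (GRCm38.p6), 27 of the 33 genes had at least 1 promoter, 34 promoters in all. On either strand, CCAAT was present in 22 of the 34 promoters (64.7%), against 37.4% of all 32851 promoters of the same length. The E-box CACGTG was present in 5 (14.7%, in Hsd17b7, Insig1, Sc5d and Scap), against 7.15% of all. The element TCACNCCAC was present in 1 (2.94%, in Hmgcs1), against 1.24% of all. A direct repeat of AGGTCA spaced by 3 bases, of the kind the vitamin D receptor binds, matched 0 of the 34 (0.00609% of all). The repeat spaced by 4 bases, of the kind the oxysterol receptors bind, also matched 0 (0.0152% of all). These exact strings were in only 2 and 5 of all 32851 promoters, so 0 of 34 says nothing about receptor sites at these genes. The upstream sequences of 3 genes are shown because these mark the range of the results: Hmgcs1, which was called in none of the comparisons below, Elovl6, which fell most in VDRcKO_Oxarol, and Fasn, which rose there. Each runs 5′ to 3′ on the gene's own strand up to the base before the start, and capitals mark the motif matches, with CCAAT read as ATTGG where it lies on the other strand.
Hmgcs1, chr13:119690101-119690350, plus strand: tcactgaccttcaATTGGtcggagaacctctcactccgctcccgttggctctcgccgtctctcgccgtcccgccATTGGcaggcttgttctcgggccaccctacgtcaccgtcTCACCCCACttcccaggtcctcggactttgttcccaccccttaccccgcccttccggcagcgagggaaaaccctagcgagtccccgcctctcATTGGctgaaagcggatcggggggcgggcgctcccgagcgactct
Elovl6, chr3:129532136-129532385, plus strand: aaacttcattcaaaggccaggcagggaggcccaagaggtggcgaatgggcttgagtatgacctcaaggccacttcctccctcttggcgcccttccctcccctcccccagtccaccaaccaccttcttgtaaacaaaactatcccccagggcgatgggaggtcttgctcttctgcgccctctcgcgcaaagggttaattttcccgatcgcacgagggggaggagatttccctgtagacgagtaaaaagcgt
Fasn, chr11:120824548-120824797, minus strand: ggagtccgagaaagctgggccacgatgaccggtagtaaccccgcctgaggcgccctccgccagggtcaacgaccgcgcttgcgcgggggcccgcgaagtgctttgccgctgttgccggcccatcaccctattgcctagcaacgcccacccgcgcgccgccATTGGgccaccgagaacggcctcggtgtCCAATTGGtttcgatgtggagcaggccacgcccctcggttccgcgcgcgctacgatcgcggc
Hmgcs1, the enzyme that makes HMG-CoA, had 3 CCAAT boxes upstream of its start, with the sterol element between the second and the third, at bases 137 to 129 before the start. Fasn had 3 CCAAT boxes, of which 2 overlap. The Elovl6 window held none of the 5 motifs, which says only that these letters are not in these bases.

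Library properties that touch the results were as follows. From the size of the steps between low values, WT_PBS replicate 3 held 5.72 times the reads of WT_PBS replicate 1, the other wild type libraries 0.370 to 1.21 times, and VDRcKO_Oxarol 0.231 to 0.338 times, estimates that may be off by a factor of 2. Within groups, Pearson correlations of log2 values lay between 0.931 and 0.966. Cyp24a1, a standard vitamin D receptor target, stood at 66.2 to 599 FPKM in WT_Oxarol and at 0 to 0.271 FPKM in VDRcKO_Oxarol. Vdr itself stood at 18.0 to 25.0 FPKM in the libraries labelled K5-Cre;VDR f/f against 4.87 to 10.1 in the 9 wild type libraries, which goes against the direction of the label. Reads from exons that Cre leaves in place enter this level too, so it does not check the deletion. Library codes form a first series (replicates 1 and 2 of each wild type group) and a second series (the third replicates and all VDRcKO_Oxarol libraries). The labels do not call these series a batch.

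The 33 genes spanned nearly 3 orders of magnitude in level per length of transcript. Scd1, the stearoyl-CoA desaturase of sebaceous glands, was highest with a mean of 2022 FPKM over the 11 libraries where it was above 0. Fdps, which makes farnesyl diphosphate, followed with a mean of 279 FPKM over 12 libraries, then Acat2 with 129 and Sqle with 106. The other cholesterol enzymes lay between 5.39 FPKM (Tm7sf2) and 80.1 FPKM (Idi1). The acetyl-CoA carboxylases Acaca and Acacb, which commit carbon to fatty acids, were lowest at 3.46 and 4.17 FPKM, and fatty acid synthase Fasn stood at 11.9 FPKM. Of the regulators, Insig2 averaged 52.9 FPKM, Insig1 31.1, Srebf1 23.1, Srebf2 18.7 and Scap 13.4.

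**Figure D1:**
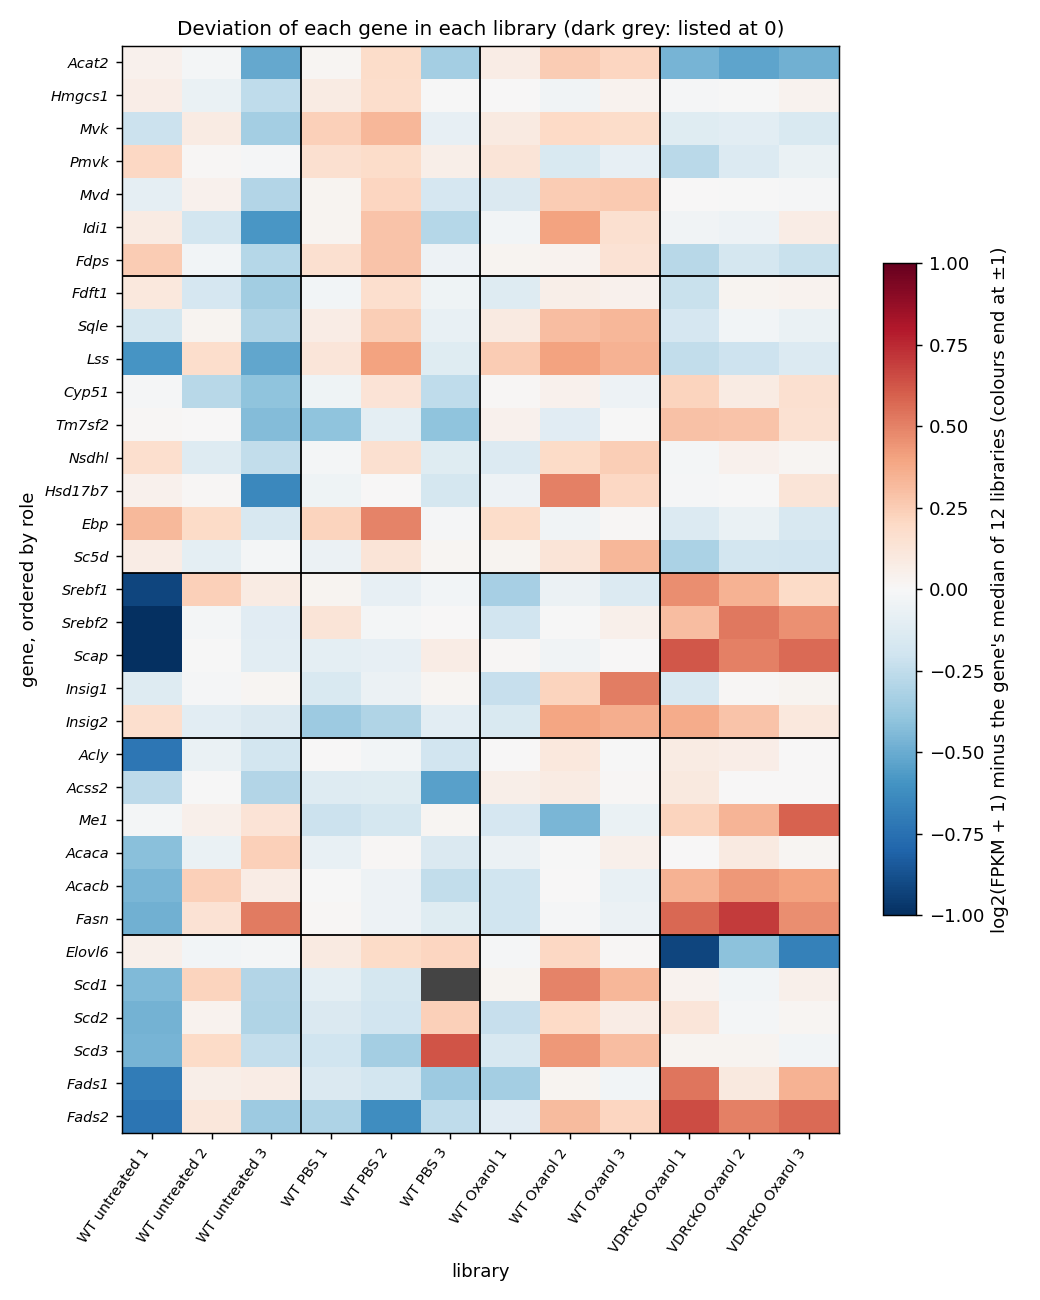
Deviation of each of the 33 genes (vertical axis, grouped by role) from its own median over 12 libraries (horizontal axis), on the log2(FPKM + 1) scale, with colours ending at ±1 and the Scd1 value listed at 0 in dark grey. Elovl6 is blue in the 3 VDRcKO_Oxarol libraries, and WT_untreated replicate 1 is dark blue for Srebf1, Srebf2 and Scap, at -0.92, -1.40 and -1.24.

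Oxarol against PBS in wild type skin asks whether the ointment moved the lipid synthesis genes within 1 day. No group received the ointment base without maxacalcitol, so the base and the drug cannot be told apart. On the limma test of log2(FPKM + 1), with adjusted p under 0.05 over 14059 genes as the call, 0 of the 33 genes were called, against 0.306% of all genes. At an unadjusted p under 0.05 there were 3 of 33 (all genes 1047 of 14059), each with a difference above 0: Insig2, Fads2 and Acss2. In all, 22 of the 33 differences were above 0 (background 52.1%) and 11 below, with a median of 0.10 against 0.01 for all genes tested.

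Insig2, the INSIG form that is least tied to SREBP itself, stood at 39.0, 40.7 and 46.9 FPKM in WT_PBS and at 45.4, 66.8 and 65.2 in WT_Oxarol. The groups overlapped through WT_Oxarol replicate 1, and the difference of 0.46 ± 0.15 (SE, log2) did not pass (limma adjusted p = 0.392). Fads2, the delta-6 desaturase that opens the route to long polyunsaturated fatty acids, stood at 4.29, 3.25 and 4.50 FPKM with PBS and at 5.06, 7.13 and 6.60 with Oxarol. These groups did not overlap, and the difference was 0.53 ± 0.20 (limma adjusted p = 0.493). Acss2, which makes acetyl-CoA from acetate, was the other gene with both groups apart, at 14.7 to 20.0 FPKM with PBS and 22.0 to 23.1 with Oxarol (difference 0.31 ± 0.12, limma adjusted p = 0.518). With Scd1, whose separation rests on a value listed at 0, non-overlapping groups were found for 3 of 33 genes (9.09%), against 15.9% of all genes.

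None of the sterol enzymes was called between these groups. Sqle, the squalene epoxidase at a rate-limiting step, stood at 108.6, 122 and 97.7 FPKM with PBS and at 109.9, 128 and 129.8 with Oxarol, overlapping ranges with a difference of 0.16 (95% interval -0.08 to 0.41). Hmgcs1 stood at 84.1, 90.0 and 79.5 FPKM with PBS and at 79.5, 77.6 and 81.4 with Oxarol, a difference of -0.09 (-0.28 to 0.10). Of the 16 sterol enzymes, 10 had a difference above 0 and 6 below, with a median of 0.10. The library series differed here: in the first alone 7 of 16 were above 0 with a median of -0.028, and in the second alone, with 1 library a group, 15 of 16 with a median of 0.34. Leaving out 1 library gave medians from 0.013 (without WT_PBS replicate 3) to 0.21 (without WT_Oxarol replicate 1), with 0.18 without WT_PBS replicate 2, 0.043 without WT_Oxarol replicate 2 and 0.040 without WT_Oxarol replicate 3. Fasn stood at 10.6, 10.1 and 9.58 FPKM with PBS and at 9.01, 10.4 and 10.03 with Oxarol, and its difference was -0.04 (-0.47 to 0.40). The transcription factors overlapped as well, Srebf1 at 23.2, 21.5 and 22.4 against 17.9, 21.8 and 20.7 FPKM and Srebf2 at 19.9, 17.9 and 18.2 against 15.8, 18.1 and 18.9. With the first library series alone the call count was also 0 of 33. With the second series alone, 1 library a group, the 1 call was Scd1, through its listed 0.

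Scd1 needs its own account. It was listed at 0 in WT_PBS replicate 3 and at 1846 and 1745 FPKM in the other PBS libraries, at 1455, 2302 and 1610.5 in WT_untreated, at 2008, 2779.6 and 2492 in WT_Oxarol, and at 2023, 1941 and 2039.7 in VDRcKO_Oxarol. In the library with the 0, its neighbours in the family were present: Scd2 stood at 47.4, Scd3 at 64.8 and Scd4 at 26.3 FPKM, and Scd2 and Scd3 were higher there than in each of the other 11 libraries. A listed 0 for a gene of this level can be a failed estimate, and reads may be shared among these close paralogs. Leaving out that value, Scd1 differed by 0.42 ± 0.21 between WT_Oxarol and WT_PBS (limma adjusted p = 0.738) and by -0.27 ± 0.18 between VDRcKO_Oxarol and WT_Oxarol (limma adjusted p = 0.342). With it, the first difference was 4.03 ± 2.22. Scd2, the desaturase form found beyond the sebaceous gland, stood at 36.1, 34.9 and 47.4 FPKM with PBS, at 34.0, 46.2 and 42.2 with Oxarol and at 43.6, 39.6 and 40.6 in VDRcKO_Oxarol, and these ranges overlapped.

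**Figure D2:**
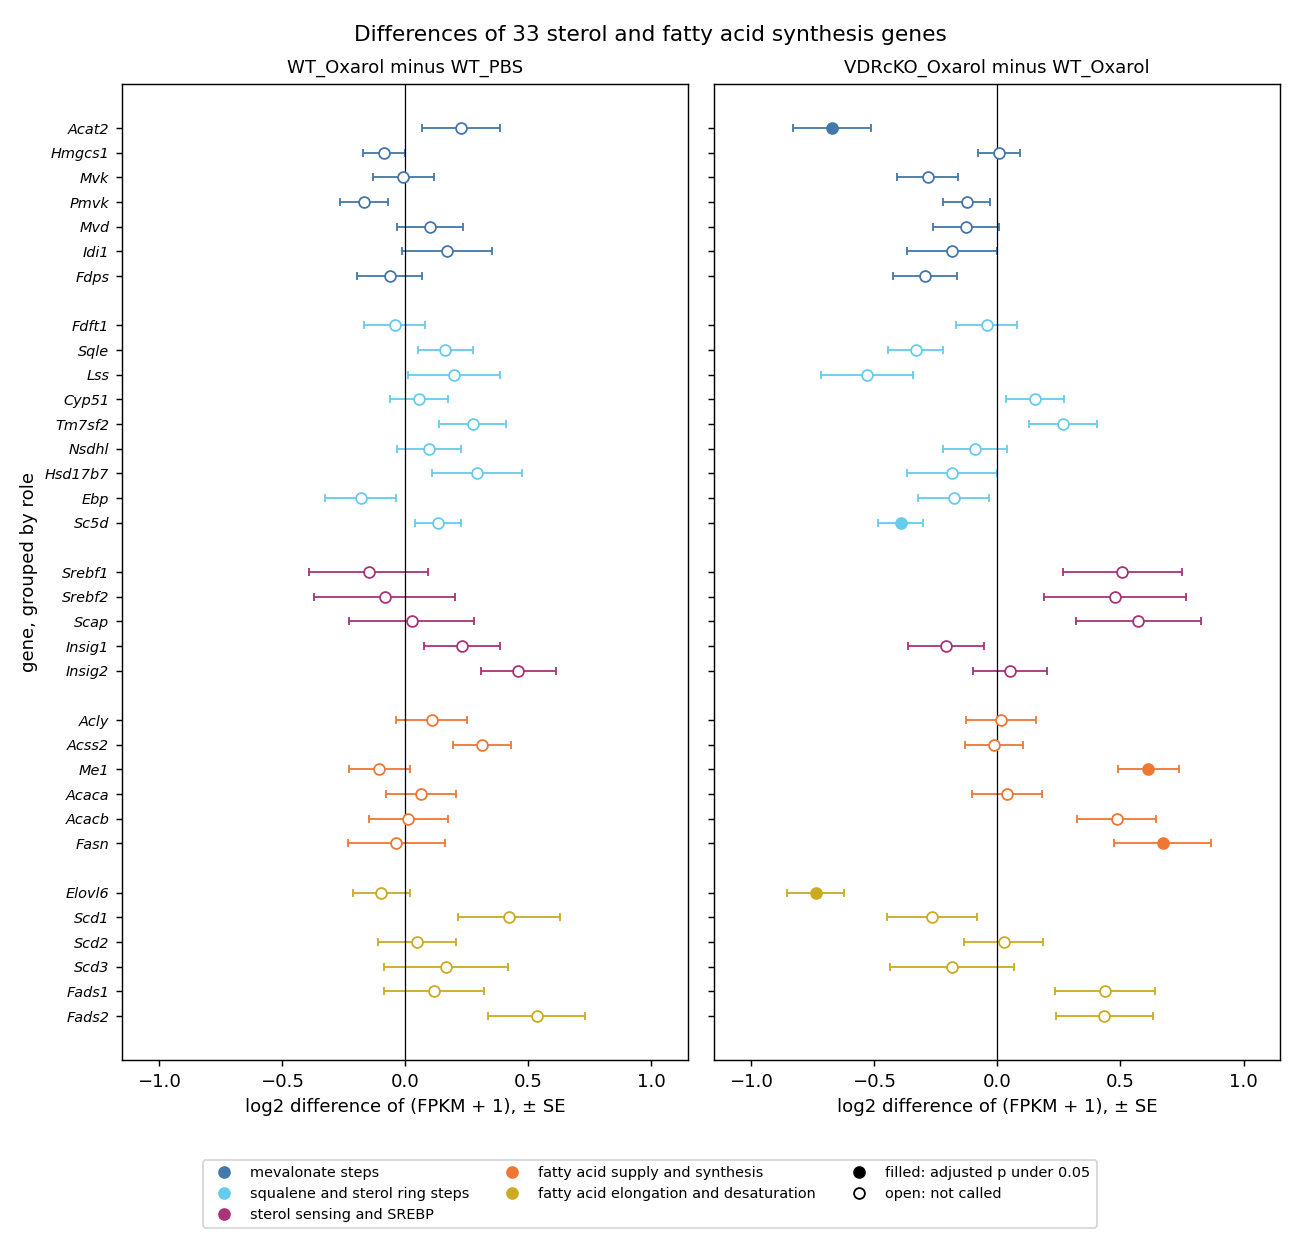
Difference of each gene between groups (horizontal axis, log2 of FPKM + 1, ± SE, n = 3 and 3), ordered by role on the vertical axis, for WT_Oxarol minus WT_PBS (left) and VDRcKO_Oxarol minus WT_Oxarol (right); the Scd1 value listed at 0 is left out of its point. No point is filled (adjusted p under 0.05) on the left, and on the right Acat2, Sc5d and Elovl6 are filled below 0 and Me1 and Fasn above 0.

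In VDRcKO_Oxarol against WT_Oxarol, both with the ointment, 3 enzymes fell and 2 rose. The limma test called 5 of the 33 genes (15.2%), against 13.1% of all genes, so the share was near the background. Elovl6, Acat2 and Sc5d were lower (3 of 33, background 4.43%) and Me1 and Fasn were higher (2 of 33, background 8.71%). By role, which no test compared, 13 of the 16 sterol enzymes had a difference below 0 (median -0.18), while 4 of the 5 regulators (median 0.48) and 5 of the 6 genes of fatty acid supply and synthesis (median 0.26) had one above 0. Over all 14059 genes 60.0% of differences were above 0, with a median of 0.08. In bulk tissue, fewer cells of a type and less RNA per cell cannot be told apart.

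Elovl6, the elongase that turns palmitate into stearate, gave the largest difference of the 33. It stood at 34.1, 49.0 and 40.6 FPKM in VDRcKO_Oxarol and at 65.1, 75.7 and 65.9 in WT_Oxarol, with 69.8, 74.9 and 76.1 in WT_PBS and 68.1, 64.3 and 64.7 in WT_untreated. Each of the 9 wild type libraries was above each VDRcKO_Oxarol library. Elovl6 fell by 0.74 ± 0.12 (SE) on the log2 scale, from a mean of 68.9 ± 5.91 to 41.3 ± 7.46 FPKM (SD, n = 3 and 3; limma adjusted p = 0.00765). In the second library series alone the difference was -0.68 without passing (limma adjusted p = 0.156, with 1 WT_Oxarol library).

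Among the cholesterol enzymes, Acat2 and Sc5d fell. Acat2, the cytosolic thiolase that makes acetoacetyl-CoA at the entry to the pathway, stood at 100.2, 95.5 and 99.0 FPKM in VDRcKO_Oxarol and at 146, 165 and 161 in WT_Oxarol. The other wild type libraries stood at 140.0, 158 and 109 (WT_PBS) and 143, 137 and 96.6 (WT_untreated), so the third untreated library lay among the VDRcKO_Oxarol values. Acat2 fell by 0.67 ± 0.16 on the log2 scale (limma adjusted p = 0.0249). The neighbouring paralog Acat3, looked at after these values were seen, differed by -0.62 ± 0.15 (limma adjusted p = 0.0287), and the ratio of Acat3 to Acat2 stayed between 0.403 and 0.449 in the 12 libraries. Whether the pair shares reads was not tested, so a change of Acat2 alone is uncertain. Tcp1, which overlaps Acat3 on the chromosome, differed by -0.07 ± 0.10.

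Sc5d, the desaturase near the end of cholesterol synthesis, stood at 44.8, 49.2 and 48.7 FPKM in VDRcKO_Oxarol and at 57.2, 61.1 and 70.7 in WT_Oxarol. With 52.2 to 61.1 FPKM in the saline and untreated libraries, the 9 wild type libraries were again all higher. Sc5d fell by 0.39 ± 0.09 on the log2 scale (limma adjusted p = 0.0253). Sqle stood at 91.8, 100.9 and 98.6 FPKM against 109.9, 128 and 129.8, without overlap, and did not pass (-0.33 ± 0.11, limma adjusted p = 0.0737). Lss, the cyclase that closes the first sterol ring system, was similar, at 41.2 to 44.6 against 58.5 to 65.0 FPKM (-0.53 ± 0.19, limma adjusted p = 0.0829). Hmgcs1 stood at 78.9, 79.4 and 81.5 FPKM, inside or beside the WT_Oxarol range, with a difference of 0.01 (95% interval -0.18 to 0.20). Tm7sf2, a sterol reductase, and Cyp51, the lanosterol demethylase, lay the other way without passing, at 0.27 ± 0.14 and 0.15 ± 0.12. The remaining 9 sterol enzymes, from Mvk to Ebp, had differences between -0.29 (Fdps) and -0.04 (Fdft1), and none was called.

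No regulator was called. Scap stood at 19.9, 18.3 and 19.2 FPKM in VDRcKO_Oxarol, above the 4.75 to 13.3 of the 9 wild type libraries (difference from WT_Oxarol 0.57 ± 0.25, limma adjusted p = 0.148). Srebf2 stood at 22.8, 26.6 and 25.2 FPKM against 15.8, 18.1 and 18.9 in WT_Oxarol (0.48 ± 0.29, limma adjusted p = 0.271). Srebf1 stood at 31.9, 29.2 and 26.1 FPKM against 17.9, 21.8 and 20.7 (0.51 ± 0.24, limma adjusted p = 0.172). All 3 had groups apart. The fit that sets their errors includes WT_untreated replicate 1, which held 11.6 FPKM of Srebf1, 6.27 of Srebf2 and 4.75 of Scap, against at least 24.2, 16.7 and 11.6 in the other untreated libraries. Without that library, Scap, Srebf1 and Srebf2 were called. All 3 are rich in GC, and with each library centred by GC content the median of the 5 regulators was 0.26 in place of 0.48. Insig1, itself a target of SREBP, stood at 27.3, 30.9 and 31.2 FPKM against 25.9, 36.0 and 44.1 (-0.21 ± 0.15), and Insig2 at 65.7, 61.8 and 54.3 against 45.4, 66.8 and 65.2 (0.05 ± 0.15), both overlapping.

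Me1 and Fasn rose. Me1, the malic enzyme that supplies NADPH for fatty acid synthesis, stood at 35.7, 38.8 and 46.3 FPKM in VDRcKO_Oxarol and at 27.0, 21.9 and 29.1 in WT_Oxarol. Its highest value in the 9 wild type libraries was 33.5 FPKM, so the groups were apart. Me1 rose by 0.61 ± 0.12 (log2, limma adjusted p = 0.0167). Fasn stood at 16.2, 17.7 and 14.9 FPKM against 9.01, 10.4 and 10.03 in WT_Oxarol, while the untreated libraries spread from 7.23 over 11.7 to 15.5. Fasn rose by 0.67 ± 0.20 (limma adjusted p = 0.0492), at the edge of the threshold. Acacb, the carboxylase form at mitochondria, stood at 5.28 to 5.70 FPKM against 3.32 to 3.97 (0.48 ± 0.16, limma adjusted p = 0.068). Acly, Acss2 and Acaca differed by 0.02, -0.01 and 0.04, and Fads1 and Fads2 by 0.44 ± 0.20 and 0.43 ± 0.20, without calls.

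Values between the groups did not overlap for 18 of the 33 genes (54.5%), against 42.2% of all genes. The count of 5 calls ran from 0 to 13 over the alternatives tried: it was 13 when only both of these groups were fitted, 1 (Elovl6) with library series as a covariate, 10 without WT_untreated replicate 1, 2 without WT_Oxarol replicate 3 or VDRcKO_Oxarol replicates 1 or 2, and 1 without WT_Oxarol replicate 2 or VDRcKO_Oxarol replicate 3. The second library series alone, the only one that holds this genotype, gave 0 calls, with differences of -0.71 for Acat2, -0.56 for Sc5d, 0.45 for Me1 and 0.64 for Fasn. The call of Fasn was lost without any 1 of 10 libraries, those of Acat2 and Sc5d without any VDRcKO_Oxarol library or WT_Oxarol replicates 2 or 3, and that of Me1 without WT_Oxarol replicate 2 or VDRcKO_Oxarol replicate 3. Of all genes, 1225 were called higher and 623 lower, a split of 820 to 1292 after quantile normalization, which lowers the median of all genes by 0.12, and of 819 to 1149 after median-of-ratios scaling. Under these scalings, 13 and 14 of 16 sterol enzymes had a difference below 0, and 4 and 3 of the 6 fatty acid supply genes had one above 0. With library series as a covariate, 9 of the 16 sterol enzymes were below 0 with a median of -0.043.

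**Figure D3:**
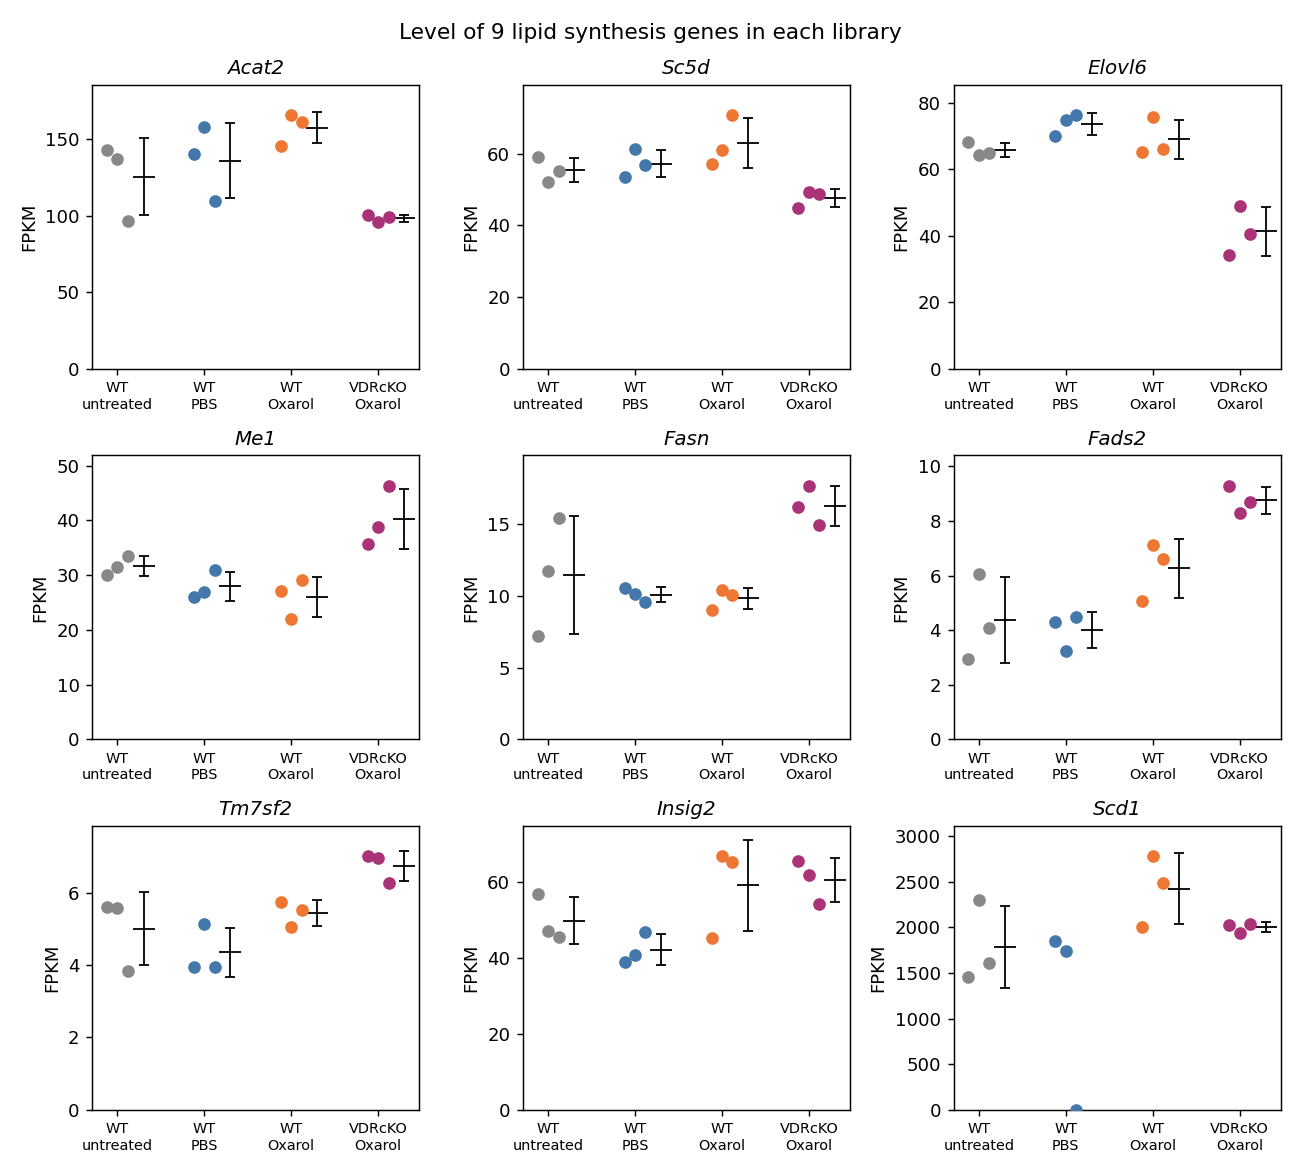
FPKM (vertical axes, from 0) of 9 genes in each library (points), with the mean and SD of each group of 3 beside them; no mean is drawn for Scd1 in WT_PBS, where 1 library is listed at 0. For Elovl6, Sc5d, Me1, Fads2 and Tm7sf2 the 3 VDRcKO_Oxarol points lie apart from the 9 wild type points, while for Acat2 and Fasn a WT_untreated point lies among them.

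VDRcKO_Oxarol against WT_PBS shares its libraries of that genotype with the comparison above, so its values stand beside those and are no second test of them. Here too 5 of 33 genes (15.2%) were called, against 16.3% of all genes, 4 of them higher (background 10.8%) and 1 lower (background 5.49%). Groups did not overlap for 21 of the 33 (63.6%, background 47.4%), and 19 differences were above 0 (background 60.3%). Elovl6 differed by -0.83 ± 0.12 (limma adjusted p = 0.0032), and Me1 by 0.51 ± 0.12 (limma adjusted p = 0.0244). Fads2, at 9.29, 8.30 and 8.68 FPKM in VDRcKO_Oxarol, was above all 9 wild type libraries (2.94 to 7.13) and rose by 0.97 ± 0.20 over WT_PBS (limma adjusted p = 0.0131). Tm7sf2, at 7.01, 6.97 and 6.27 FPKM against 3.95, 5.14 and 3.96, was likewise above every wild type library and rose by 0.54 ± 0.14 (limma adjusted p = 0.0269). Insig2 rose by 0.51 ± 0.15 (limma adjusted p = 0.045), and lost its call in 10 of 24 alternatives. Acat2 (-0.45), Sc5d (-0.26) and Fasn (0.64) did not pass here, at limma adjusted p of 0.0766, 0.079 and 0.0516.

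By role, 12 of the 16 sterol enzymes were below 0 against WT_PBS (median -0.13), and all 7 of the mevalonate steps were. For the sterol enzymes this was 10 of 16 with library series as a covariate (median -0.051), 9 in the second series alone (-0.011) and 10 without WT_PBS replicate 2 (-0.059). The 5 regulators and the 6 fatty acid supply genes were all above 0 as deposited, while 1 of each was below 0 after quantile normalization. The count of 5 calls ran from 1 to 15: it was 15 when only both groups were fitted, 13 without WT_untreated replicate 1, 8 without WT_untreated replicate 3, 3 without VDRcKO_Oxarol replicate 1, 2 (Elovl6 and Tm7sf2) with library series as a covariate, 2 without WT_PBS replicates 1 or 2 or VDRcKO_Oxarol replicates 2 or 3, and 1 (Scd1, through its listed 0) in the second series alone. With library series as a covariate Fads2 (0.91), Me1 (0.38) and Insig2 (0.45) were no longer called (limma adjusted p = 0.0615, 0.115 and 0.172). Of all genes, 1514 were called higher and 772 lower, a split of 968 to 1620 after quantile normalization.

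The untreated ears give the baseline. Between WT_PBS and WT_untreated 0 of 33 genes were called, against 0.00711% of all genes. At an unadjusted p under 0.05 there were 2 (Mvk and Lss), against 1312 of all 14059 genes. Mvk, mevalonate kinase, differed by 0.32 ± 0.12 and Lss by 0.45 ± 0.19, with overlapping libraries. Of the 33 differences 23 were above 0 (background 50.7%), and groups were apart for 2 genes (6.06%, background 13.0%), Srebf2 and Elovl6. Between WT_Oxarol and WT_untreated 0 of 33 were called, against 1.31% of all genes, and 8 had an unadjusted p under 0.05 (all genes 2403 of 14059). There 28 of 33 differences were above 0 (background 49.6%), with a median of 0.23 against 0.00 for all genes. Sqle differed by 0.39 ± 0.11 (limma adjusted p = 0.118) and Lss by 0.65 ± 0.19 (limma adjusted p = 0.121), both with groups apart. The untreated values behind them were 91.1, 105 and 83.6 FPKM for Sqle and 32.2, 55.4 and 33.9 for Lss, low in replicates 1 and 3. Non-overlapping groups were found for 7 of 33 genes (21.2%), against 18.8% of all genes, and leaving out both of those untreated libraries together with WT_PBS replicate 3 took the median to 0.07. Between WT_Oxarol and WT_untreated, 13 of 13 adipocyte markers (median -0.41) and 6 of 6 striated muscle markers (median -0.93) were below 0. Most of the 33 genes lay the other way. Between WT_PBS and WT_untreated the same marker counts held with medians of -0.42 and -1.03. The muscle markers summed to 3119 to 7010.1 FPKM in WT_untreated, 1373 to 2719 in WT_PBS and 1622 to 2693 in WT_Oxarol. Their part in the lipid genes' values was not tested.

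Genes around the pathway, from lists that are not part of the 33, were called about as often as all genes between VDRcKO_Oxarol and WT_Oxarol. Of 17 other sterol genes tested, 2 were higher and 1 lower (17.6% in all, background 13.1%). Unlike the sterol enzymes among the 33, 12 of these 17 had a difference above 0 (background 60.0%) and 5 below, with a median of 0.05. Dhcr7, the last reductase of cholesterol synthesis, rose from 28.8 ± 2.14 to 36.5 ± 1.00 FPKM (SD, n = 3; 0.33 ± 0.10, limma adjusted p = 0.0468), and the cholesterol exporter Abca1 rose by 0.49 ± 0.14. Soat1, which esterifies cholesterol, fell from 75.3 ± 12.0 to 47.5 ± 3.58 FPKM (log2 -0.64 ± 0.12, limma adjusted p = 0.0125). Of 21 other fatty acid synthesis genes tested, 3 were higher and 0 lower (14.3%, background 13.1%): Elovl5, an elongase of polyunsaturated chains (0.84 ± 0.16), the acyl-CoA synthetase Acsl3 (0.54 ± 0.11) and Fads3 (0.81 ± 0.22). Elovl5 stood at 71.9 ± 2.996 FPKM against 40.2 ± 8.12 in WT_Oxarol, the opposite direction to its relative Elovl6.

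Of 15 fatty acid oxidation and PPAR genes, 2 were called (13.3%, background 13.1%). Acadl, a mitochondrial acyl-CoA dehydrogenase, rose by 0.53 ± 0.12 and Crot, the peroxisomal carnitine octanoyltransferase, fell by 1.06 ± 0.30 on the log2 scale. Crot was the 1 gene of these 3 lists that was called for Oxarol against PBS, from 21.8, 18.7 and 21.4 FPKM to 37.0, 109 and 88.3 (1.74 ± 0.30, limma adjusted p = 0.0496). In VDRcKO_Oxarol it stood at 35.8, 30.3 and 34.9 FPKM, just under the lowest WT_Oxarol library.

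Levels of cell type markers stand beside these results. The summed level of 13 adipocyte markers was 1048 to 1758 FPKM in VDRcKO_Oxarol, 622 to 878 in WT_Oxarol and 3105 in WT_untreated replicate 3. That untreated library also held the highest wild type Fasn and the lowest wild type Acat2. Its Elovl6 lay between those of the other untreated libraries. Its Elovl6 and Sc5d were above every VDRcKO_Oxarol library, and its Me1 was below every one. Its striated muscle markers summed to 7010.1 FPKM, the highest of the 12 libraries. None of the 13 adipocyte markers was at 0 in any library, and 9 of them (69.2%, background 42.2%) did not overlap between VDRcKO_Oxarol and WT_Oxarol. Of the 13, 0 were called (background 13.1%), and 3 had an unadjusted p under 0.05 on the limma test (all genes 4531 of 14059). Sebaceous markers (12 genes, Ldhc at 0 in some libraries) summed to 1255 to 1478 FPKM in VDRcKO_Oxarol, inside the wild type range of 1243 to 1826. Within that list Krt79 rose by 1.01 ± 0.13 and Soat1 fell, 2 calls among 11 tested (18.2%, background 13.1%). The 21 hair follicle markers found summed to 337 to 1429 FPKM in VDRcKO_Oxarol and 25.0 to 390 in wild type libraries. Of the 21, 16 were called higher (76.2%, background 8.71%) and 0 lower. Among the keratins of this list, 9 were at 0 in at least 1 library. Striated muscle markers summed to 2551 to 3226 FPKM in VDRcKO_Oxarol and 1622 to 2693 in WT_Oxarol. Of these 6, 5 differed above 0 (background 60.0%) and 0 were called (background 13.1%). Basal keratinocyte markers summed to 2993 to 3244 against 2829 to 4022 FPKM, with 0 of 7 called. Suprabasal keratinocyte markers summed to 4680 to 5806 against 4745 to 5604 FPKM, with 1 of 6 called, higher (16.7%, background 8.71%). The part of these cell types in the lipid genes' results was not tested.

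Genes were also split into 5 bins of equal size by GC content. In the richest bin, the median deviation of a library from the gene medians was 0.11 to 0.19 (log2) in VDRcKO_Oxarol and -0.28 in WT_untreated replicate 1, and the median difference between VDRcKO_Oxarol and WT_Oxarol ran from 0.00 in the poorest bin to 0.22 in the richest. Fasn (57.9% GC), Srebf1 (58.4%), Srebf2 (57.9%), Scap (59.1%) and Acacb (56.7%) lay in the richest bin, with differences above 0 from WT_Oxarol. Mvd (59.0%), Pmvk (57.0%) and Mvk (56.3%) lay there too, with differences of -0.13, -0.12 and -0.28. Elovl6 (44.0%) and Me1 (45.1%) lay in the second poorest. With each library centred within these bins, Fasn differed by 0.45 without passing (limma adjusted p = 0.0627), and Elovl6, Acat2, Sc5d and Me1 were still called, with Mvk and Sqle added below 0. In that setting the 6 fatty acid supply genes split into 3 above and 3 below 0 with a median of 0.12, and the median of the 5 regulators was 0.26.

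**Figure D4:**
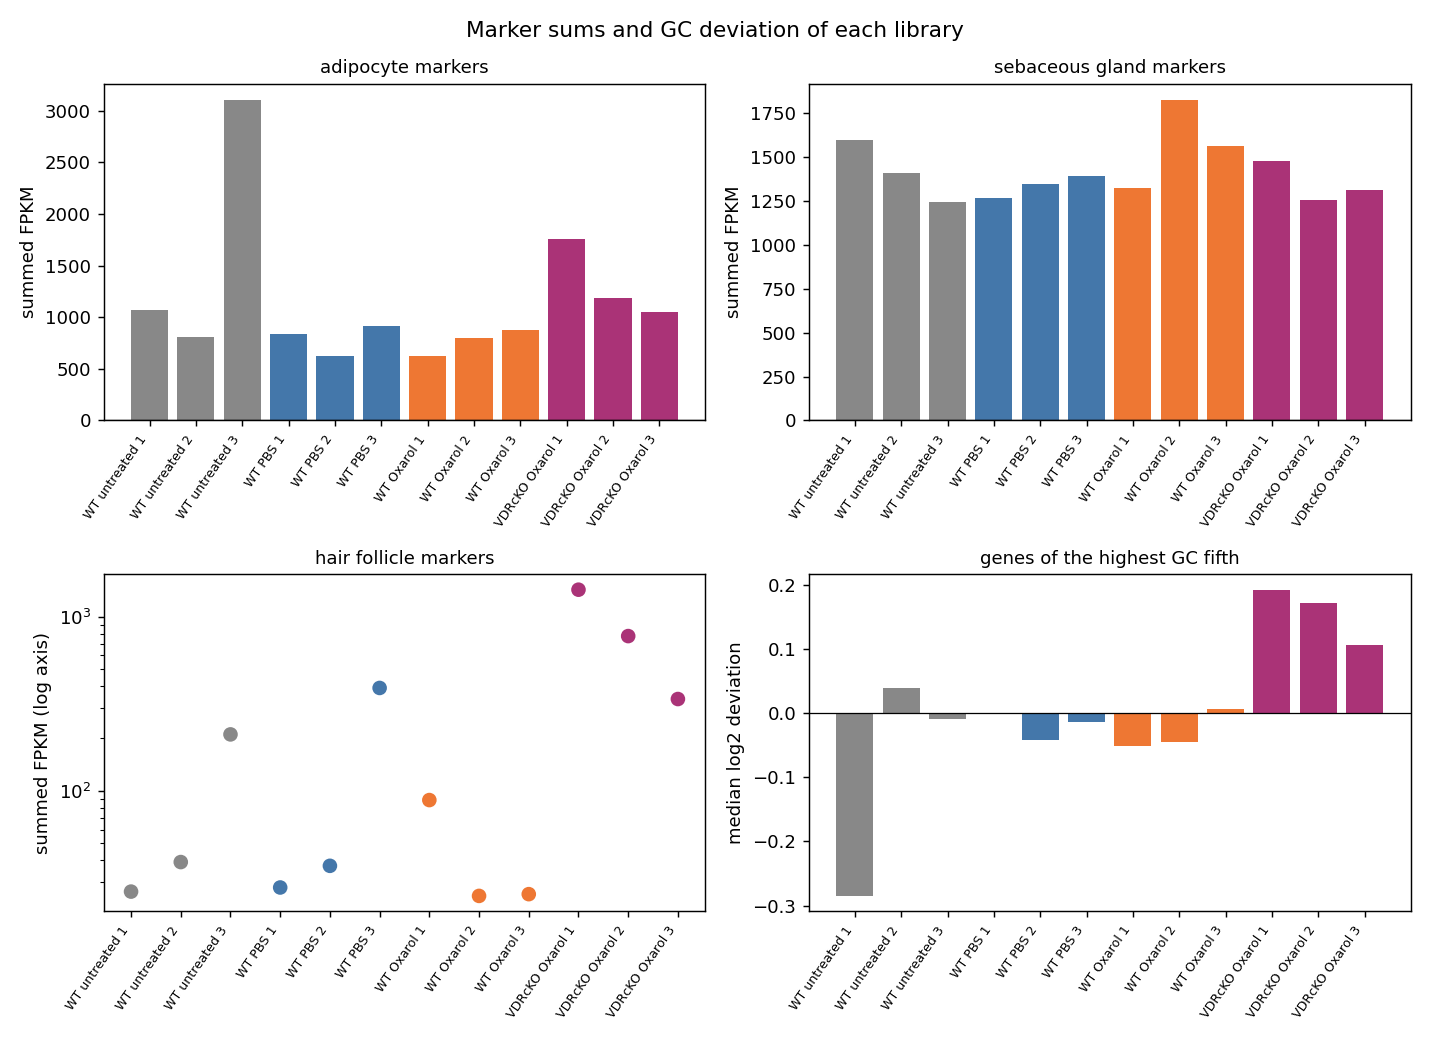
Summed FPKM of 13 adipocyte, 12 sebaceous gland and 21 hair follicle markers in each of the 12 libraries (the last on a log axis), and the median log2 deviation of genes in the richest of 5 GC bins. The VDRcKO_Oxarol libraries are above WT_Oxarol for adipocyte and hair follicle markers and for GC-rich genes. For adipocyte and for sebaceous markers they are inside the range of all wild type libraries. For hair follicle markers VDRcKO_Oxarol replicate 3 is below WT_PBS replicate 3.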

How the data were processed

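Total RNA of ear skin went into NEBNext Ultra libraries, as the labels' protocols state. The submitters' processing notes list the build mm9 and the tools Cufflinks 2.1.1, TopHat2 2.0.8 and Bowtie2 2.1.0, without saying how each was run. The authors deposited 1 value per gene symbol and library, taken here as FPKM; the headers name no unit. Strandedness is not given, so overlapping genes cannot be told apart.

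A pseudocount of 1 was added before log2. The main test was limma 3.58.1 (R 4.3.3) with an intensity trend, all 4 groups in 1 fit, with Benjamini-Hochberg adjustment over 14059 genes, a call being an adjusted p under 0.05. Differences on this scale understate changes of low genes. Recovered depth was relative only, so no count test was run. The code was tested on simulated data. GC content came from GENCODE transcripts of a later build (90.3% of genes tested, 33 of 33 members). Promoters came from RefSeq (GRCm38.p6).

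The members and lists were chosen with earlier results of these data known. Values per library are given for members called in at least 1 comparison and for Srebf1, Srebf2, Insig1, Hmgcs1, Sqle, Fasn, Scd1 and Scd2. Genes of the lists that are not members are named only if called, up to 4 per list and comparison. Acat3, Tcp1, Vdr, Cyp24a1 and Scd4 were added outside that rule. So were library values of Scap, Lss and Scd3, which the main test called in no comparison. The alternatives were scaling by quantiles or by median of ratios, a fit without the groups not compared, library series as a covariate, the first series by itself, robust variance estimation, a pseudocount of 0.1, a filter of 5 FPKM or none, listed zeros of genes with a median of at least 10 FPKM set to missing, and leaving out each library. Chosen after seeing the data were the second series alone, centring within 5 GC bins, and leaving out WT_untreated replicates 1 and 3 with WT_PBS replicate 3. Figures used Python 3.11.15 and matplotlib 3.10.9.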

Additional observations from a re-analysis of the deposited data

How the results depend on the processing

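Elovl6 kept its direction and its call against WT_Oxarol and against WT_PBS in 23 of 24 alternatives each, the exception being the second library series alone. The number of genes called between VDRcKO_Oxarol and WT_Oxarol was 13 with only the groups compared, 13 without the 3 libraries that stand apart, 1 with library series as a covariate, 0 in the second series alone, and 1 to 10 when leaving out 1 library. Against WT_PBS it was 15, 15, 2, 1 and 2 to 13, and 8 after median-of-ratios scaling. In the second series alone, 1 gene (Scd1) was called for WT_Oxarol against WT_PBS and 1 for WT_PBS against WT_untreated, and leaving out 1 library gave 0 to 1 for WT_Oxarol against WT_untreated. For VDRcKO_Oxarol against WT_Oxarol the median of the 33 moved to -0.14 after median-of-ratios scaling and to -0.12 after centring within GC bins. Against WT_PBS it moved to -0.035 after quantile normalization, -0.024 after median-of-ratios scaling, -0.0075 after GC centring and 0.18 in the second series. In the second series it was 0.20 for WT_Oxarol against WT_PBS and 0.38 for WT_Oxarol against WT_untreated, where it was 0.065 without the 3 libraries.

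Insig2 between VDRcKO_Oxarol and WT_Oxarol, never called, changed sign to -0.044 after median-of-ratios scaling, -0.012 with library series as a covariate and -0.11 in the second series, and ran from -0.13 (without WT_Oxarol replicate 1) to 0.15 when leaving out 1 library, with -0.0080 without VDRcKO_Oxarol replicate 1. Scd1 changed sign to 2.16 with that covariate in that comparison and, for WT_PBS against WT_untreated, to 0.033 with its listed 0 missing; leaving out 1 library there gave -5.39 to 0.033, the latter without WT_PBS replicate 3. The causes were not tested. Of all genes, 1848 were called between VDRcKO_Oxarol and WT_Oxarol, 283 with that covariate, 90 in the second series alone, 3259 without the 3 libraries, and 322 (without WT_Oxarol replicate 2) to 3435 (without WT_untreated replicate 1) when leaving out 1 library. Against WT_PBS, 2286 became 3875 with only the groups compared, 611, 22 and 3489 under the same settings, and 540 to 3881 when leaving out 1 library. For WT_Oxarol against WT_PBS, 43 became 0 with only the groups compared, 2 in the first series, 26 in the second, 10 without the 3 libraries and 4 to 128 when leaving out 1. For WT_Oxarol against WT_untreated, 184 became 90 without a filter, 20 with only the groups compared and in the first series, 63 in the second, 24 without the 3 libraries and 28 to 248 when leaving out 1. For WT_PBS against WT_untreated, 1 became 0 to 29. After GC centring, calls split into 917 higher and 1083 lower for VDRcKO_Oxarol against WT_Oxarol and 1190 and 1286 against WT_PBS. Shallow libraries of VDRcKO_Oxarol limit low genes. No paired analysis was possible because replicate numbers follow deposit order and pair no libraries.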
